A study of Mus musculus with 5 samples.

Results

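Glul, Cyp2e1 and Gulo were the 3 genes described, out of 64 on a targeted capture panel. They were taken by name from the panel's gene rows, and each had 6554 or more UMIs in every library. They mark hepatocytes near the central vein, a label that was checked here against Cyp2f2, a periportal gene. Glul encodes glutamine synthetase, Cyp2e1 a cytochrome P450 that oxidises ethanol, acetone and other small molecules, and Gulo L-gulonolactone oxidase, which carries out the last step of vitamin C synthesis in mice. Hepatocytes along the lobule differ in their enzymes. Wnt signals from the central vein, acting through beta-catenin, keep the pericentral programme on. Glutamine synthetase is classically confined to a thin sleeve of cells around the vein, where it captures ammonia left over from urea synthesis upstream, whereas Cyp2e1 reaches further out into the lobule.

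Hepatocytes were isolated from the liver of male mice of the C57BL/6J strain, WT in genotype and kept on normal chow; the sources used here give neither ages nor mice per library. All mice were trained for 3 days on a cycle of 16 h without food and 8 h with it, and on the last day all received food with 20% sucrose in their water. Fed mice (0 h) had eaten for 4 h when killed, at 13 o'clock. The fasted mice lost food and sucrose at that hour and were killed 8, 16, 24 or 30 h later, at 21, 5, 13 and 19 o'clock. Values of the 5 libraries are listed in the order 0, 8, 16, 24 and 30 h. With 1 library per time there is no replicate check and no test, and the intervals cover counting error only. Hours of fasting and time of day cannot be told apart except between 0 h and 24 h.

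The libraries held 7208 to 12153 barcodes and 3979629 to 11288725 panel UMIs. The 8 h library stood apart in depth, with a median of 219 UMIs per barcode against 651 to 1202.5 in the others. Barcodes of 300 or more panel UMIs, on which the distributions below rest, made up 42.5% of the barcodes at 8 h and 87.3% to 94.5% elsewhere. This filter was uneven at 8 h. It kept 24.96% of barcodes with more Cyp2e1 than Cyp2f2 UMIs and 72.3% of those with more Cyp2f2 (81.9% and 96.1% at 0 h). Of 47235 barcode sequences, 238 occurred in more than 1 library, with 11 to 34 shared by any pair. Alb, the main hepatocyte product, took 69.4% to 71.8% of panel UMIs.

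The annotated genes lie at chr1:153899944-153909723 (Glul, ENSMUSG00000026473, plus strand), chr7:140763739-140774987 (Cyp2e1, ENSMUSG00000025479, plus strand) and chr14:65986786-66009207 (Gulo, ENSMUSG00000034450, minus strand) on GRCm38, and all 3 are protein coding. An exon of Glul overlaps Mir8114 on the same strand, so Glul UMIs could include some from it. Promoter stretches are shown for Glul and Cyp2e1, the members matched to a RefSeq window, so that motifs can be read beside their levels. They are RefSeq sequences on GRCm38.p6, plus strand, from 250 bases before the RefSeq start, at chr1:153899679-153899928 for Glul and chr7:140763569-140763738 for Cyp2e1, the latter ending before its first annotated exon. Capitals mark matches, on either strand, to the CCAAT box (CCAAT) or to cores of the TCF/LEF factors that act with beta-catenin, searched as CTTTGAA and as CTTTGAT.
Glul: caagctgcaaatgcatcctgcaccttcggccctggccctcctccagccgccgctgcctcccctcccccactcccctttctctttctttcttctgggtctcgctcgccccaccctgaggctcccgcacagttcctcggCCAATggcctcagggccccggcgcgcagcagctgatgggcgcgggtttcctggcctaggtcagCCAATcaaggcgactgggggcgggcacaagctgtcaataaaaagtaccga
Cyp2e1: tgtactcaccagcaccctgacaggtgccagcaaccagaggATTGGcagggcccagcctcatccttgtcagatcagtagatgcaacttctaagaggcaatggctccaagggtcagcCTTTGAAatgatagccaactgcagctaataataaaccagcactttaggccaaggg

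The Cyp2e1 stretch held CTTTGAA from -135 to -129 relative to the RefSeq start and CCAAT on the minus strand from -210 to -206. The Glul stretch held CCAAT from -113 to -109 and from -50 to -46. Over 32851 RefSeq windows of 300 bases, 8.65% held CTTTGAA or CTTTGAT and 37.4% held CCAAT. Those windows include 50 bases after the start, whereas the stretches shown have 250 (Glul) and 170 (Cyp2e1) bases before it. The shares are therefore not matched in length or region. The TATA box (TATAAA) and the HNF1 motif were also searched and had no match in either stretch (13.6% and 0.00913% of windows held them). HNF1 was searched only as its full motif with no mismatch allowed, which 3 of the 32851 windows held. A miss was therefore likely for almost any stretch, and it does not show that HNF1-like sites are absent. All motif results here are letter matches, and none of the readouts bears on binding.

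The members did not follow a common course over time. Levels are given as CPM, the UMIs of a gene per 1000000 panel UMIs of the library, over all barcodes. Cyp2e1 stood at 11020, 21897, 20241, 30034 and 32950 CPM. By this measure it was higher in all 4 fasted libraries, and highest in the latest. By UMIs per barcode, which follow depth, Cyp2e1 and Gulo at 8 h were instead below 0 h, with log2 ratios of -0.69 and -0.93. The 95% Poisson interval of the fed level was 10945 to 11095, and that of the 30 h level 32845 to 33056. The log2 ratios of the fasted libraries to 0 h were 0.99, 0.88, 1.45 and 1.58, the last with an interval of 1.57 to 1.59 and equal to a 2.99-fold difference. The deeper barcodes, those of at least 300 UMIs, gave 17102 CPM at 8 h, a log2 ratio of 0.69.

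Gulo stood at 1072, 1804, 1751, 1675 and 964 CPM. The middle 3 libraries were therefore high, and the last lay below the fed level, with intervals of 946 to 983 and 1049 to 1096. The log2 ratios to 0 h were 0.75, 0.71, 0.64 and -0.15 (the last -0.19 to -0.11). From 24 h to 30 h Gulo changed by -0.80 (-0.83 to -0.76), and Cyp2e1 over the same step by 0.13.

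Glul stood at 2137, 2167, 1065, 2156 and 1404 CPM. The libraries at 0, 8 and 24 h had overlapping intervals, and those at 16 and 30 h were low. The log2 ratios to 0 h were 0.020 (-0.018 to 0.058), -1.005 (-1.05 to -0.96), 0.013 (-0.016 to 0.042) and -0.61. The deeper barcodes gave 1905 CPM at 8 h, a log2 ratio of -0.15.

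**Figure D1:**
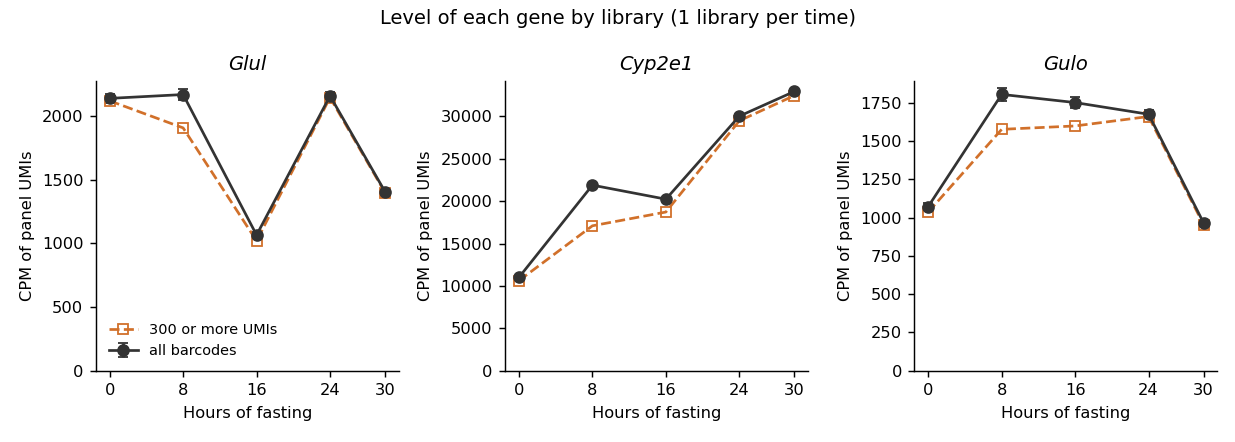
Level of Glul, Cyp2e1 and Gulo (CPM of panel UMIs, linear axes from 0) against hours of fasting, 1 library per time; filled circles are all barcodes with 95% Poisson intervals, open squares the barcodes of 300 or more UMIs. Cyp2e1 is highest at 30 h (32950 CPM), Glul lowest at 16 h (1065 CPM) and Gulo lowest at 30 h (964 CPM).

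Against 0 h, Cyp2e1 was past 2-fold higher at 24 h and at 30 h, when 8.93% and 16.1% of the 56 panel genes with 100 or more UMIs over the pair of libraries were. No member was past 2-fold higher at 8 h (17.9% of panel genes) or at 16 h (10.7%). Glul was past 2-fold lower at 16 h by a narrow margin (0.498-fold; 28.6% of panel genes), and no member was at 8 h (12.5%), 24 h (23.2%) or 30 h (26.8%). Among the panel genes Cyp2e1 ranked 3 of 56 by its ratio at 24 h and 5 at 30 h. The panel held 5 of 23 listed pericentral genes, the other two being the bile acid hydroxylases Cyp27a1 and Cyp7a1. The median log2 ratios of these 5 genes were 0.75, 0.26, 0.64 and -0.11 in the fasted libraries, beside panel medians of 0.047, -0.15, -0.12 and -0.071. As 3 of the 5 are the members, these medians are not independent of them, and the 24 h one is Gulo's own ratio. At 16 h the 5 genes ran from -1.50 (Cyp7a1) to 0.88 (Cyp2e1). For 6 of 16 listed periportal genes the medians were 0.51, 0.18, 0.27 and 0.56.

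To compare libraries of unlike depth, each barcode of 300 or more UMIs was thinned at random to 300 panel UMIs, which left 6704, 5159, 8260, 8064 and 9534 barcodes. Cyp2e1 then had a low mass of barcodes and a long shoulder of rich ones. The means were 4.51, 5.90, 7.46, 11.6 and 12.7 UMIs of 300, but the medians only 1, 2, 1, 3 and 2. The 90th percentiles were 15, 19, 29, 36 and 50 UMIs. The variance was 18.2 to 39.5 times the mean, where Poisson counting alone gives 1.

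A barcode was called Cyp2e1-rich at 14 or more of 300 UMIs, which is 3 times the 0 h mean, rounded up. Cyp2e1-rich barcodes made up 10.7%, 13.7%, 17.4%, 28.0% and 24.1% of the libraries. The 95% exact binomial intervals were 9.92% to 11.4%, 12.8% to 14.7%, 16.5% to 18.2%, 27.0% to 29.0% and 23.2% to 24.96%, so none overlapped. By this fixed cut the domain, the share of rich barcodes, was wider in each fasted library than in the fed one, and widest at 24 h. A share above a fixed cut also grows where the level rises, so it does not measure width alone. The 8 h share depends on the depth filter. Thinning to 100 UMIs, which kept 86.5% of the 8 h barcodes, gave 11.6%, 23.1%, 20.4%, 29.7% and 25.1%, so 8 h then lay above 16 h. Between 174 and 370 barcodes per library lay within 20% of the cut. The median rich barcode held 29, 24, 32, 30 and 42 UMIs of 300. This median is taken above a fixed cut, so barcodes newly past the cut lower it. It therefore cannot separate width from level. The 0 h and 24 h libraries, taken at the same time of day, differed in share with nearly equal medians in rich barcodes. Their 90th percentiles over all barcodes were 15 and 36 UMIs. The 30 h library combined a high share with the highest median.

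Measured against each library's own mean (3 times that mean, or 14 to 39 UMIs), the Cyp2e1-rich shares were 10.7%, 10.6%, 12.4%, 11.04% and 13.3%. By this measure 8 h did not lie above 0 h, and 24 h was close to it. The richest 10% of barcodes held 74.2%, 55.0%, 62.3%, 44.6% and 55.6% of the Cyp2e1 UMIs. The fed library thus had the most concentrated Cyp2e1, and the 24 h library the least. Outside the rich barcodes the means were 1.2, 2.40, 1.60, 2.99 and 1.98 UMIs of 300. Barcodes with no Cyp2e1 UMI of 300 made up 47.8%, 28.5%, 32.7%, 10.1% and 19.5%, so the low mass was also lowest in the fed library and highest at 24 h.

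Gulo had the same kind of domain at a lower level. It was called rich at 2 or more of 300 UMIs, the least the cut could be, since its 0 h mean was 0.446. Gulo-rich barcodes made up 8.95%, 11.9%, 13.7%, 14.5% and 8.90% of the libraries. The intervals at 0 h (8.28% to 9.66%) and 30 h (8.34% to 9.49%) overlapped, and those of the other 3 libraries, which began at 11.1%, 12.9% and 13.7%, lay above both. Between 229 and 534 barcodes per library stood exactly at the cut, so these shares depend on where it is set. With 2 or more of 100 UMIs the 8 h share was 3.43%, just below the 3.61% at 0 h. The richest 10% of barcodes held 78.7%, 59.5%, 64.7%, 57.8% and 75.6% of Gulo UMIs, highest in the fed library and lowest at 24 h, as for Cyp2e1. The Gulo means were 0.446, 0.531, 0.623, 0.651 and 0.394 UMIs of 300. The highest shares thus fell in the libraries with the lowest means, and the part of sparse counts in them was not tested.

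Glul was distributed unlike the other two. Most barcodes had none or a few Glul UMIs of 300, and a very small set had many more. At 0 h, 23 barcodes held 5 to 9 UMIs, 1 held 10 to 14 and 12 held 15 or more. By the rule used for the other two genes (3 times the 0 h mean, or 3 of 300 UMIs), the shares were 3.95%, 2.83%, 1.05%, 3.44% and 2.06%, all below 0 h in the fasted libraries. That cut lies within the mass of poor barcodes. A Glul-rich barcode was therefore set at 10 or more of 300 UMIs, a cut chosen after the distribution was seen. At this cut the direction turned at 8, 16 and 24 h, while 30 h was level with 0 h. There were 13, 24, 42, 84 and 19 Glul-rich barcodes, or 0.194%, 0.465%, 0.508%, 1.04% and 0.199% of the libraries. The 24 h share, with an interval of 0.832% to 1.29%, lay above the intervals of the other 4 libraries, which reached at most 0.691%. The 0 h and 30 h libraries were the lowest, with intervals of 0.103% to 0.331% and 0.120% to 0.311%. Within 8 to 12 UMIs lay 3, 2, 8, 28 and 8 barcodes. In barcodes of 500 or more UMIs thinned to 500 (cut 17), the 24 h share was 1.06%, but the 16 h share was 0.201% and the 0 h share 0.197%, so the higher share at 16 h was not seen at that depth.

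**Figure D2:**
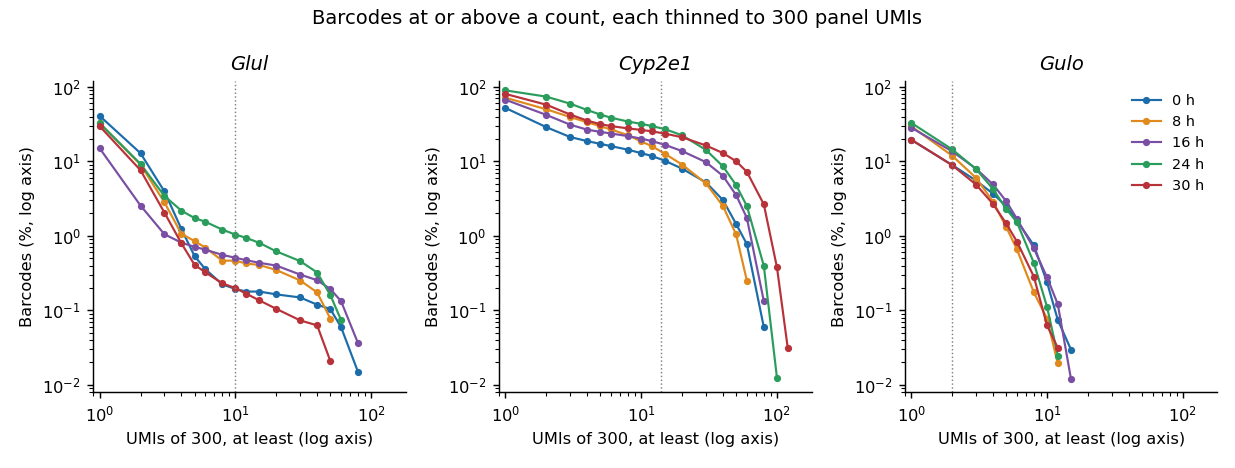
Share of barcodes (%, log axis) at or above a number of UMIs (log axis) for each gene, after every barcode was thinned to 300 panel UMIs; colours are libraries and dotted lines the cuts of 10 (Glul), 14 (Cyp2e1) and 2 (Gulo). The Glul curves flatten beyond a few UMIs, with 24 h on top at 10 (1.04% of barcodes), whereas the Gulo curves drop without a shelf.

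Splitting Glul at that cut separated rich from poor barcodes. The rich ones held 13.5%, 25.4%, 53.9%, 40.8% and 11.7% of the thinned Glul UMIs. In the poor ones the means were 0.589, 0.447, 0.180, 0.456 and 0.399 UMIs of 300, lowest at 16 h. Per barcode of the library, the UMIs in poor barcodes had a log2 ratio to 0 h of -1.71 at 16 h, while those in rich barcodes had 1.19. At 24 h these ratios were -0.38 and 1.76, and at 30 h both were below 0, at -0.56 and -0.80. Among the poor barcodes 59.3% had no Glul UMI at 0 h, where a Poisson count of the same mean gives 55.5%, and 85.4% at 16 h, where it gives 83.5%.

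Position in the lobule was read from other genes. For Glul and Gulo, barcodes of 300 or more UMIs were ranked within each library by their Cyp2e1-to-Cyp2f2 ratio and cut into 10 bins of equal size, bin 10 having the most Cyp2e1 for its Cyp2f2. Glul changed little over the outer bins of the fed library, with 1554 CPM in bin 1 and 1688 in bin 7, and then stood at 2579 in bin 9 and 7037 in bin 10. At 16 h the same bins held 339, 386, 2570 and 6651 CPM. The means of bins 9 and 10 thus nearly matched the fed library, while bins 1 and 7 were far lower. Most barcodes of bins 9 and 10 did not match it. Those with a Glul UMI made up 76.1% and 78.5% at 0 h, and 41.8% and 45.6% at 16 h, at lower depth. In Cyp2e1-rich barcodes that were not Glul-rich, Glul stood at 3686 CPM at 0 h and 1449 CPM at 16 h. At 24 h bins 1, 7, 9 and 10 held 822, 1427, 4567 and 11672 CPM, the highest bin 10 of the 5 libraries. At 30 h they held 1023, 1153, 2190 and 3986 CPM, the lowest bin 10. Bin 10 held 22.5%, 30.6%, 45.7%, 37.4% and 20.8% of Glul UMIs.

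Gulo followed the axis more steeply and differed in width. Bin 10 held 59.6%, 33.6%, 43.7%, 34.1% and 51.4% of its UMIs. In bin 8 Gulo stood at 461, 2688, 1523, 3030 and 948 CPM, and in bin 10 at 9107, 6409, 9965, 8228 and 6729 CPM. The libraries therefore differed more at the outer edge of the Gulo domain, where 8 h and 24 h were high, than in its innermost bin. The bins are shares of each library's barcodes, so a wider Cyp2e1 domain also moves their borders.

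For Cyp2e1 the rank was by falling Cyp2f2 alone. In bins 8, 9 and 10 Cyp2e1 stood at 5212, 11564 and 93325 CPM in the fed library, 51595, 93500 and 119259 CPM at 24 h, and 22387, 111307 and 196149 CPM at 30 h. The fed library thus had its Cyp2e1 mostly in bin 10, the 30 h library in bins 9 and 10, and the 24 h library was already high in bin 8. At 8 h bins 9 and 10 were alike (54021 and 52652 CPM), in the shallowest library (median 219 UMIs). The part of depth in that was not tested.

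**Figure D3:**
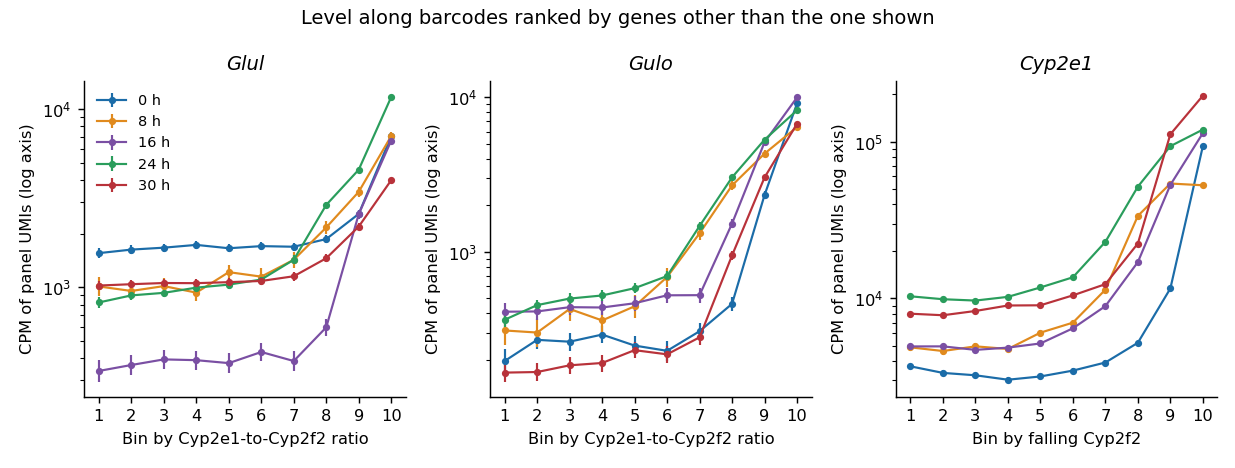
CPM (log axis, 95% Poisson intervals) of Glul and Gulo in 10 equal bins of barcodes by rising Cyp2e1-to-Cyp2f2 ratio, and of Cyp2e1 by falling Cyp2f2; colours are libraries. Glul is lowest at 16 h in the outer bins (386 CPM in bin 7), while Gulo and Cyp2e1 at 24 h are already high in bin 8 (3030 and 51595 CPM).

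The outer part of these profiles was also measured where the genes should be low. In barcodes with no Cyp2e1 UMI of 300, Glul stood at 1627, 978, 360, 822 and 978 CPM. The fed level (1587 to 1668) was the highest and the 16 h level (335 to 387) the lowest. This class held 3206, 1468, 2705, 813 and 1856 barcodes, so it is a different slice of each library. After thinning to 300, 36.5% of these barcodes had a Glul UMI at 0 h (median depth 1189 before thinning) and 9.72% at 16 h (779), against 40.9% (1084) and 15.01% (706.5) of all barcodes. A Glul UMI therefore did not single out pericentral barcodes. For Gulo the shares were 7.45% and 10.9%, against 19.5% and 28.4% of all barcodes. For Cyp2e1, 47.4% of the barcodes in the 5 Cyp2f2-richest bins at 0 h and 87.6% at 24 h had a UMI, against 52.2% and 89.9% of all barcodes.

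UMI ratios differed between the Cyp2f2-rich barcodes and the whole library. In the 5 Cyp2f2-richest bins there were 0.576 Glul UMIs per Cyp2e1 UMI at 0 h, against 0.199 over all barcodes and 0.0690 in the Cyp2f2-poorest bin. The same ratios were 0.0914, 0.0544 and 0.0457 at 16 h, and 0.139, 0.0430 and 0.0171 at 30 h. For Gulo they were 0.125, 0.0974 and 0.0883 (0 h), 0.125, 0.0854 and 0.0716 (16 h), and 0.0325, 0.0293 and 0.0293 (30 h), closer together than for Glul at 0 h and 30 h. The part of free RNA in the outer Glul and Cyp2e1 levels was not tested.

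Cyp2e1 and Gulo were coupled within every library. Over the thinned barcodes, Spearman's rho was 0.48, 0.51, 0.55, 0.56 and 0.51, and Pearson's r of the log2 values 0.69, 0.58, 0.70, 0.62 and 0.62. These are descriptions over the 5159 to 9534 barcodes of a library, which share that library and a total of 300 UMIs. Without Alb in the total (100 UMIs of the other genes), rho was 0.41 to 0.46. Glul was only weakly related to the others, with rho of 0.15 to 0.26 with Cyp2e1 and 0.13 to 0.24 with Gulo. Without Alb these were -0.0018 to 0.0998 and 0.014 to 0.097, which in counts this sparse is no finding.

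Glul-rich barcodes lay almost wholly within the Cyp2e1 domain. Of 182 Glul-rich barcodes in the 5 libraries, 181 were also Cyp2e1-rich, the exception being at 16 h (41 of 42). Among the other barcodes 7227 of 37539 were, from 10.5% at 0 h to 27.2% at 24 h. Gulo-rich were 176 of the 182, and 4188 of the 37539. The reverse did not hold, since only 181 of 7408 Cyp2e1-rich barcodes were Glul-rich, or 1.82%, 3.39%, 2.86%, 3.72% and 0.827% of them by library.

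Glul-rich barcodes also had more of the other members than the rest of the Cyp2e1-rich barcodes. With Alb and Glul left out of the total, Gulo was 2.52 to 4.19 times and Cyp2e1 1.52 to 1.68 times as high across the 5 libraries. Gulo stood at 27290, 15434, 20002, 16257 and 19916 CPM in Glul-rich barcodes. Cyp2f2 stood at 3872, 3314, 5521, 4560 and 3684 CPM in them and at 6011, 3747, 5627, 4709 and 6811 CPM in the other Cyp2e1-rich barcodes, with overlapping intervals at 8, 16 and 24 h. The median depths were 823, 469, 452.5, 990.5 and 910 UMIs against 702, 449, 504, 876 and 877.5, so Glul-rich barcodes were the deeper ones except at 16 h. The 6 panel genes of endothelial, immune and mesenchymal cells (Cdh5, Mrc1, Cd68, Ptprc, Pdgfra and Pdgfrb) summed to 0, 1, 0, 2 and 0 UMIs in Glul-rich barcodes. These counts allow up to 348, 486, 179, 91.8 and 230 CPM (upper 95% Poisson bounds), above the 25.6 to 59.1 CPM of the other Cyp2e1-rich barcodes, so a difference was not detectable at this depth.

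The amount of Gulo per Cyp2e1 differed with time. Of the Cyp2e1-rich barcodes, 63.3%, 50.1%, 62.8%, 45.2% and 35.4% were Gulo-rich. The late libraries were the low ones, with the 30 h interval of 33.4% to 37.4% below that of the fed library (59.7% to 66.8%). Barcodes with 20 to 39 Cyp2e1 UMIs of 300 held Gulo at 7525, 6009, 6543, 4527 and 2070 CPM. In this class Gulo was highest in the fed library (7187 to 7876), as it was at 40 or more Cyp2e1 UMIs, whereas in each class under 20 another library was higher. The 30 h library was the lowest in all 6 classes. Glul in barcodes with 20 to 39 Cyp2e1 UMIs stood at 3686, 5143, 2289, 3158 and 1776 CPM. In those with 40 or more it stood at 15592, 21842, 11035, 15632 and 3821 CPM, again lowest at 30 h. The class of 20 to 39 held 333, 338, 609, 1116 and 780 barcodes, and that of 40 or more 203, 130, 528, 692 and 1234. A fixed Cyp2e1 class is thus a different slice of each library, so these values do not compare like barcodes.

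**Figure D4:**
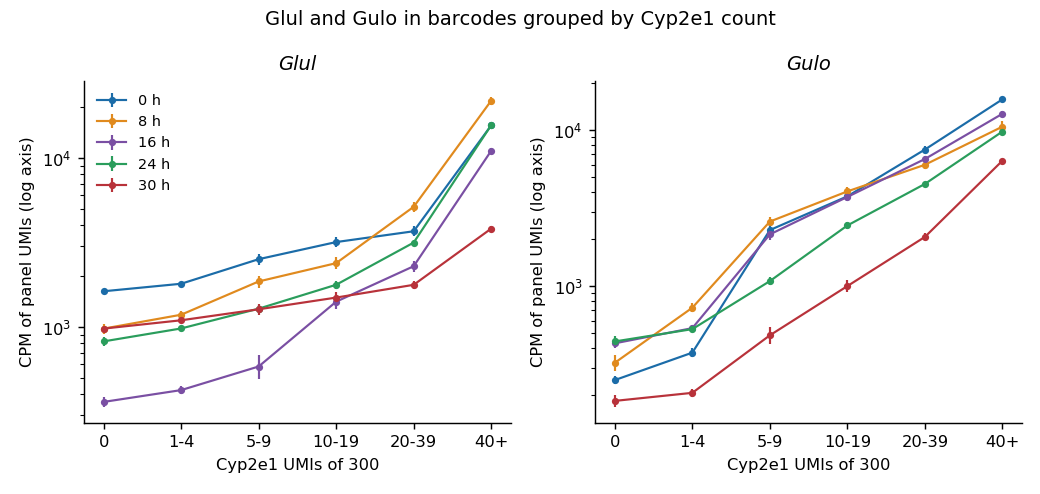
CPM (log axis, 95% Poisson intervals) of Glul and Gulo in barcodes grouped by their Cyp2e1 count of 300 UMIs; colours are libraries. Gulo climbs with each Cyp2e1 class and is lowest at 30 h throughout (2070 CPM at 20 to 39 UMIs). Glul is highest in the class of 40 or more in every library, and there 30 h (3821 CPM) lies below the others. That class held 203 barcodes at 0 h and 1234 at 30 h.

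Of the 52 panel genes with 100 or more UMIs in every library, those most like each member across barcodes were ranked by the mean of the within-library rho. For Cyp2e1 they were Gulo (0.52), Cyp7a1 (0.46) and Scd1, a fatty acid desaturase (0.40). For Gulo they were Cyp2e1 (0.52), Cyp7a1 (0.39) and Hsd3b7, a bile acid enzyme (0.31). For Glul they were Cyp2e1 (0.20), Gulo (0.17) and the cytoskeletal gene Actb (0.16), all low. The total of UMIs behind these rho includes Alb, and without Alb those between members were lower, as given above. Likeness over time was the mean absolute difference of log2 ratios to 0 h over the 4 fasted libraries. The nearest genes were Hamp2, a hepcidin gene, for Glul (0.24), Nr0b2, a nuclear receptor, for Cyp2e1 (0.48) and G6pc, a glucose-6-phosphatase subunit, for Gulo (0.35). Next came S1pr2 (0.37) and Alb (0.43) for Glul, G6pc (0.50) and Sds, serine dehydratase (0.52), for Cyp2e1, and Scd1 (0.41) and Cyp27a1 (0.44) for Gulo. Alb takes most panel UMIs, so its own log2 ratios could move little (0.0099 to 0.048). At a single time Hamp2, S1pr2 and Alb differed from Glul by up to 0.53, 0.98 and 1.03.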

How the data were processed

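The authors deposited 1 matrix of UMI counts of 64 genes by 47473 barcodes, not normalized. The file headers and the submitters' processing notes name Cell Ranger 6.0.1, and the notes build mm10. Libraries were 10x Chromium 3' version 3, enriched for the panel by hybrid capture, per the labels' protocols. A deposited table gave each barcode's library. The calling of barcodes as cells is not given in the sources used here. No doublet caller was run.

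UMIs were summed per library and divided by all panel UMIs (CPM, with exact Poisson intervals). Log2 ratios had exact conditional binomial intervals, and shares of barcodes exact Clopper-Pearson intervals, all at 95% and for counting error only. Barcodes of 300 or more UMIs were thinned without replacement to 300 (seed 1). Fixed-level cuts were 3 times the 0 h mean, rounded up and at least 2 UMIs. The Glul cut of 10 was added after the data had been seen. Rank bins used log2(1 + UMIs per 1000). Alternatives were other denominators, scalings, depths and cuts. Python 3.11.15, numpy 2.4.6, scipy 1.17.1 and pandas 2.3.3 were used, and the steps were tested on simulated data. Positions came from GENCODE M21 and promoter windows from RefSeq, with 2 of the 3 members matched by symbol. The genes named were the members, the panel genes on lists of pericentral and periportal genes, and the 3 genes most like each member by 2 measures. Members and lists were chosen with earlier results of these data known.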

Additional observations from a re-analysis of the deposited data

Results flagged for a closer look

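Changes against 0 h had opposite signs in bin 10 and in the pooled bins 1 to 9, with both counting intervals clear of 0, in 5 cases. None of these differences was tested, as each time is a single library. The bins are shares of each library's barcodes, so their borders move with the share of Cyp2e1-rich barcodes (10.7% at 0 h and 28.0% at 24 h). The part of moved borders in these cases was not tested. For Glul at 24 h the log2 ratio was 0.73 (0.67 to 0.79) in bin 10 of the Cyp2e1-to-Cyp2f2 rank and -0.29 (-0.32 to -0.25) in the other bins. For Gulo on the same rank the pairs for bin 10 and the others were -0.51 and 1.34 (8 h), -0.15 and 1.39 (24 h), and -0.44 and 0.15 (30 h). The pooled bins were not uniform. Gulo at 30 h was -0.45 (-0.57 to -0.32) in bins 1 to 5, with bins 8 and 9 at 948 and 3026 CPM against 461 and 2327 at 0 h. Glul at 24 h was -0.81 in bins 1 to 5, with bins 8 and 9 at 2898 and 4567 CPM against 1864 and 2579 at 0 h. In the other cases bins 1 to 5 had the sign of the pooled bins. For Cyp2e1 on the rank by falling Cyp2f2 the log2 ratio at 8 h was -0.83 in bin 10 and 1.63 in the others. In that library the filter of 300 UMIs removed shallow barcodes most unevenly.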

How the results depend on the processing

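No paired analysis was possible because each time has 1 library, and for the same reason no replicate could be left out. By UMIs per barcode, which moved the panel median by -1.63 at 8 h and -0.83 at 16 h against 0 h, Cyp2e1 and Gulo at 8 h reversed (log2 -0.69 and -0.93). The other values at 8, 16, 24 and 30 h were then -1.66, -1.69, 0.23 and -0.51 for Glul, 0.19, 1.67 and 1.67 for Cyp2e1 from 16 h, and 0.020, 0.86 and -0.059 for Gulo from 16 h. Without Alb in the denominator they were 0.11, -0.93 and 0.13 for Glul at 8, 16 and 24 h, 1.08, 0.95, 1.56 and 1.60 for Cyp2e1, and 0.84, 0.78 and 0.76 for Gulo. Median-of-ratios scaling gave -0.039, -0.90 and 0.13 for Glul, 0.93, 0.98, 1.57 and 1.59 for Cyp2e1, and 0.69, 0.81 and 0.76 for Gulo. Barcodes of 300 or more UMIs gave -0.15 and -1.05 for Glul at 8 and 16 h, 0.69, 0.82, 1.47 and 1.61 for Cyp2e1, and 0.60 and 0.63 for Gulo at 8 and 16 h. The mean of per-barcode CPM gave 0.21, -0.74 and 0.12 for Glul, 0.86, 0.81, 1.32 and 1.42 for Cyp2e1, and 0.38, 0.65, 0.46 and -0.25 for Gulo. The sign of Glul at 8 h therefore depends on the scaling, and its place past 2-fold at 16 h held only by UMIs per barcode and in deeper barcodes, while Cyp2e1 at 8 h was past 2-fold higher only without Alb.

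The number of fasted libraries with a larger Glul share than 0 h was 0 at 3 of 300 UMIs, 1 at 5 times the 0 h mean, 2 at 3 times the library's own mean, 1 after thinning to 500, 2 after thinning to 100, and 4 at 10 of 300. The cause was not tested beyond the split of rich and poor barcodes. At 10 of 300 it was also 4 with a depth of 200, and 3 when thinned to 500 or 100 UMIs, without Alb, without the 5% of barcodes with most UMIs, or at cuts of 5 or 20, the 30 h library then being the one not above 0 h. The rank correlation of Glul with Cyp2e1 at 0 h reversed to -0.0018 without Alb. For Cyp2e1 the count was 4 in every setting except 3 at 3 times its own library's mean. For Gulo it was 3, with 4 at a depth of 500 and 2 at a depth of 100.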

Other observations

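The other pericentral genes of the panel gave gradients of their own along the Cyp2e1-to-Cyp2f2 rank. Cyp27a1, which starts the alternative pathway of bile acid synthesis, stood at 1041 CPM in bin 1 and 4101 in bin 10 at 0 h, and at 1471 and 5508 CPM at 30 h. Cyp7a1, the rate-limiting enzyme of the classic pathway, stood at 150 CPM in bin 1 and 5310 in bin 10 at 0 h. At 16 h it was at 32.5 and 1625 CPM, in the library in which Glul was also lowest in bin 1. At 24 h it was at 292 and 6704 CPM. In Glul-rich barcodes Cyp7a1 was 1.39 to 2.34 times, and Cyp27a1 1.13 to 1.52 times, as high as in the other Cyp2e1-rich barcodes, with Alb and Glul left out of the total. These ratios carry no intervals, and Glul-rich barcodes held only 48, 71, 89, 369 and 93 Cyp27a1 UMIs. By CPM of all panel UMIs the Cyp27a1 intervals overlapped at 0 h (3342 to 6010 against 3876 to 4223) and 16 h (3462 to 5304 against 3965 to 4260).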
